A study of Mus musculus with 6 samples.

Results

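R-spondins are secreted proteins that raise the sensitivity of cells to Wnt ligands. They bind the leucine-rich repeat receptors LGR4, LGR5 and LGR6 together with the membrane ubiquitin ligases RNF43 and ZNRF3, which otherwise clear Frizzled and LRP Wnt receptors from the cell surface, and so spare those receptors. In embryonic skin, Wnt/β-catenin signalling acts in both the dermis and the epidermis and is needed for the first hair placodes and the dermal condensates beneath them. The 4 ligands Rspo1, Rspo2, Rspo3 and Rspo4, the 3 receptors Lgr4, Lgr5 and Lgr6 and the 2 ligases Rnf43 and Znrf3 were taken by name as a functional group, 9 genes of the 28000 in the count tables, and all 9 had a row.

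The data were single-cell counts from dorsolateral or flank skin of CD1 mouse embryos, each library pooling 3 to 4 embryos. For controls, given as wild type (WT) in the labels, each of the stages E13.5 and E14.5 (embryonic days after conception) had 2 libraries, numbered 1 and 2. The LOF group, with the genotype PDGFRαCreER(Lo);β-catfl/fl;mTmG, had 1 library at each of these stages. In that genotype a tamoxifen-activated Cre from the Pdgfra gene, which marks dermal fibroblasts, deletes floxed β-catenin, the transcriptional effector of Wnt signalling, and switches the mTmG reporter from tdTomato to eGFP. Tamoxifen went once, by gavage, at E11.5; the treatment entry is repeated for every sample but names that genotype alone. Cells were stained with DAPI and sorted, and the gate was not given in the sources used here. No label says how the replicate libraries were separated, so p-values measure the spread between these libraries, which may be technical.

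The libraries held 53461986 to 86446575 unique molecular identifiers (UMIs, each a captured mRNA molecule), and 40653 of 41594 barcodes were kept. Pairs of libraries shared 44 to 101 barcodes, at most 1.45% of the smaller library. Fibroblasts (22509 cells, 55.4% of those kept) carried at least 15 UMIs of Col1a1, Col1a2 and Col3a1, and keratinocytes (7590 cells, 18.7%) at least 10 UMIs of Krt5, Krt14, Krt15 and Epcam. Among the 10 genes that lead each class by fold, 5 were fibroblast markers in fibroblasts and 4 were keratinocyte markers in keratinocytes. Markers of other classes were 0. The class rule sets much of this: outside the genes that define the classes, the markers were Lum and Twist2 in fibroblasts and Perp in keratinocytes. Both classes also exclude cells that met another class, which keeps markers of other classes down. Levels are CPM, a gene's UMIs scaled to 1000000 UMIs of its class in a library, and intervals on a single library cover counting error only. A 3′ UMI count does not scale with transcript length, and no level is compared between genes.

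Reporter transcripts did not follow the labels in every library. In fibroblasts, eGFP stood at 3.01 and 5.29 CPM in the replicate 1 controls of E13.5 and E14.5 but at 119 and 92.7 CPM in the replicate 2 controls, against 351 and 320 CPM in the LOF libraries. In keratinocytes tdTomato stood at 1038 and 828 CPM in E13.5 controls 1 and 2. In those of E14.5 controls 1 and 2 it was at 39.7 and 308 CPM. Fibroblasts of these 4 libraries held 5.64, 7.75, 21.2 and 3.16 CPM of tdTomato, and LOF fibroblasts 3.26 and 4.77 CPM. It was thus not a general mark of cells without eGFP, and what it marks was not tested. Reporter UMIs were found in all 4 libraries labelled WT. Lef1, a Wnt target, was at 26.4 and 29.8 CPM in fibroblasts of the E13.5 pair and at 67.6 and 46.9 CPM in those of the E14.5 pair. "Control" therefore means the label. The class comparison and the splits of 4 libraries were also run without both replicate 2 controls, the genotype tests against the replicate 1 controls alone, and the tests of stage with each library left out in turn. Gm42418 stood at 1754 CPM in fibroblasts of E14.5 control 1 and 1148 CPM in those of the E14.5 LOF library, against 54.1 to 79.8 CPM in the other 4; its part in the results was not tested.

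Upstream windows are shown for Rspo1, a ligand higher in fibroblasts in the results that follow, and for the receptors Lgr4 and Lgr6. Both receptors were higher in keratinocytes, and Lgr4 was present in fibroblasts as well. Of the 9 genes, 5 (Rspo1, Rspo4, Lgr4, Lgr6 and Rnf43) matched the RefSeq promoter table of build GRCm38.p6. Each window is the 250 bases before the transcription start, read 5′ to 3′ on the gene's own strand, with every CG dinucleotide in capitals.
Rspo1, chr4:124986180-124986429, plus strand: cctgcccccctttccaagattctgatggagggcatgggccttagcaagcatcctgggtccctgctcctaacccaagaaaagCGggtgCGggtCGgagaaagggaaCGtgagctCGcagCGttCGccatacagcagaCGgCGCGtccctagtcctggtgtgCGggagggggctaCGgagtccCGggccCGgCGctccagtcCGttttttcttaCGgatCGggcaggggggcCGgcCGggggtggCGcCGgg
Lgr4, chr2:109917397-109917646, plus strand: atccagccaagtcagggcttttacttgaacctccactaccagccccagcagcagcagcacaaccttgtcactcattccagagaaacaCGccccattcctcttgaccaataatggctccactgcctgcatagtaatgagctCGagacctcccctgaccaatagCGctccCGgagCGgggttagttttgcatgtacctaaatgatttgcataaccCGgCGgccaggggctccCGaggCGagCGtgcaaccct
Lgr6, chr1:135105277-135105526, minus strand: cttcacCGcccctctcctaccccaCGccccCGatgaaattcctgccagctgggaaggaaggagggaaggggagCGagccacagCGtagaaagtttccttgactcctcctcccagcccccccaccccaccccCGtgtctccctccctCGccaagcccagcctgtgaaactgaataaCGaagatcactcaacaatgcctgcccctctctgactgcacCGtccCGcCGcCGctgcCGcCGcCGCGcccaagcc
The Rspo1 window holds 22 CG dinucleotides and 66.8% G or C, the Lgr6 window 16 and 65.2%, and the Lgr4 window 10 and 55.6%, beside a median of 52.4% G or C over the table's 32851 windows of this length. The 5-letter core CTTTG, part of the TCF/LEF motif, was searched on both strands (CAAAG on the reverse). It lies in 48.6% of all such windows and in 0 of the 3 printed here, which says only that these letters are not in these bases.

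Between fibroblasts and keratinocytes, the ligands and Lgr5 were higher in fibroblasts, and Lgr4, Lgr6 and the ligases were higher in keratinocytes. Comparing keratinocytes with fibroblasts of the same 4 control libraries asked in which compartment each gene was transcribed. All 9 genes differed: Rspo1, Rspo2, Rspo3, Rspo4 and Lgr5 were lower in keratinocytes, and Lgr4, Lgr6, Rnf43 and Znrf3 were higher (edgeR quasi-likelihood test with the library as a block, Benjamini-Hochberg adjusted p under 0.05). Of all 14482 genes tested, 67.9% differed, 32.6% higher in keratinocytes and 35.3% higher in fibroblasts, so a call by itself sets none of the 9 apart.

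Rspo1 (ENSMUSG00000028871, chr4:124986430-125009099, GRCm38) was measured at 126 and 61.9 CPM in fibroblasts of the E13.5 controls and at 105 and 133 CPM in those of the E14.5 controls. In keratinocytes of the same libraries it stood at 4.47, 1.61, 2.31 and 2.56 CPM. The groups did not overlap, and the lowest fibroblast library, E13.5 control 2, was still above every keratinocyte value. The difference was 36.5-fold (log2 -5.19 ± 0.16 SE, edgeR adjusted p = 4.39e-06). An Rspo1 UMI was found in 30.7% to 48.5% of control fibroblasts (median depth per cell 7280 to 10149 UMIs) and in 1.77% to 6.47% of keratinocytes (10268 to 14725 UMIs). Stray counts were not told apart from transcription in keratinocytes. After each cell was thinned to 3000 UMIs the shares were 14.7% to 28.4% and 0.393% to 1.64%.

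Rspo3 (ENSMUSG00000019880, chr10:29452416-29535867) followed the same split. Fibroblasts held 59.3, 47.5, 60.1 and 45.3 CPM (controls 1 and 2 of the earlier stage, then of the later), and keratinocytes 3.39, 3.04, 2.21 and 2.35 CPM. No control keratinocyte value came near the lowest fibroblast value. Rspo3 was 18.2-fold lower in keratinocytes (log2 -4.18 ± 0.14 SE, edgeR adjusted p = 4.45e-06).

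Rspo2 and Rspo4 were close to the detection limit. Rspo2 (chr15:43020794-43170826) gave 55, 49, 23 and 8 UMIs in control fibroblasts against 1 UMI over all 4 control keratinocyte sums, a ratio of 62.6 with a counting interval of 11 to 2490. Rspo4 (chr2:151842927-151874668) gave 35, 14, 10 and 6 UMIs against 0, which makes it at least 10.0-fold higher in fibroblasts when the floor is 3 UMIs over the group. With both replicate 2 controls left out, Rspo4 fell below the filter on low counts and the other 8 genes kept their direction and call.

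Lgr4 was the receptor present in both compartments. Lgr4 (ENSMUSG00000050199, chr2:109917647-110014257) stood at 55.8, 40.0, 27.6 and 38.5 CPM in control keratinocytes and at 28.0, 17.0, 10.5 and 15.0 CPM in fibroblasts. Keratinocytes were higher in 4 of 4 libraries, although the ranges met: fibroblasts of E13.5 control 1 were level with keratinocytes of E14.5 control 1. The within-library difference was 2.55-fold (log2 1.35 ± 0.09 SE, edgeR adjusted p = 4.77e-05). Of control keratinocytes 29.1% to 49.8% held an Lgr4 UMI, and of fibroblasts 9.93% to 22.0%.

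Lgr5 and Lgr6, receptors known as stem cell markers of the adult hair follicle, split in opposite directions. Lgr5 (chr10:115450311-115587780) was at 9.52, 6.16, 7.10 and 4.18 CPM in fibroblasts and at 0.75, 0.18, 0.15 and 0.28 CPM in keratinocytes, the latter resting on 20 UMIs. Lgr6 (chr1:134983301-135105276) was at 6.44, 5.72, 7.67 and 6.85 CPM in keratinocytes and at 0.81, 0.70, 1.17 and 0.37 CPM in fibroblasts. Neither gene's groups overlapped. Lgr5 was 19.2-fold lower in keratinocytes (log2 -4.27 ± 0.33 SE, edgeR adjusted p = 7.51e-05) and Lgr6 was 9.44-fold higher (log2 3.24 ± 0.26 SE, adjusted p = 8.54e-05).

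The ligases were on the epidermal side. Rnf43 (chr11:87662722-87735539) stood at 12.9, 14.1, 20.2 and 10.2 CPM in keratinocytes and at 0.28, 0.28, 0.20 and 0.56 CPM in fibroblasts, a 48.2-fold difference (log2 5.59 ± 0.35 SE, edgeR adjusted p = 4.20e-05). Znrf3 (chr11:5276324-5444847) stood at 71.7, 47.3, 24 and 43.1 CPM in keratinocytes and at 11.8, 8.84, 6.69 and 9.99 CPM in fibroblasts, 5.13-fold apart (log2 2.36 ± 0.13 SE, edgeR adjusted p = 2.24e-05). Of control fibroblasts 6.61% to 11.3% held a Znrf3 UMI, and 0.219% to 0.389% an Rnf43 UMI. Rspo1, Rspo4 and Lgr5 each overlap a gene on the opposite strand that also has a row (Gm12930, Rspo4os and A930009A15Rik), and whether counting used strand was not given in the sources used here.

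**Figure D1:**
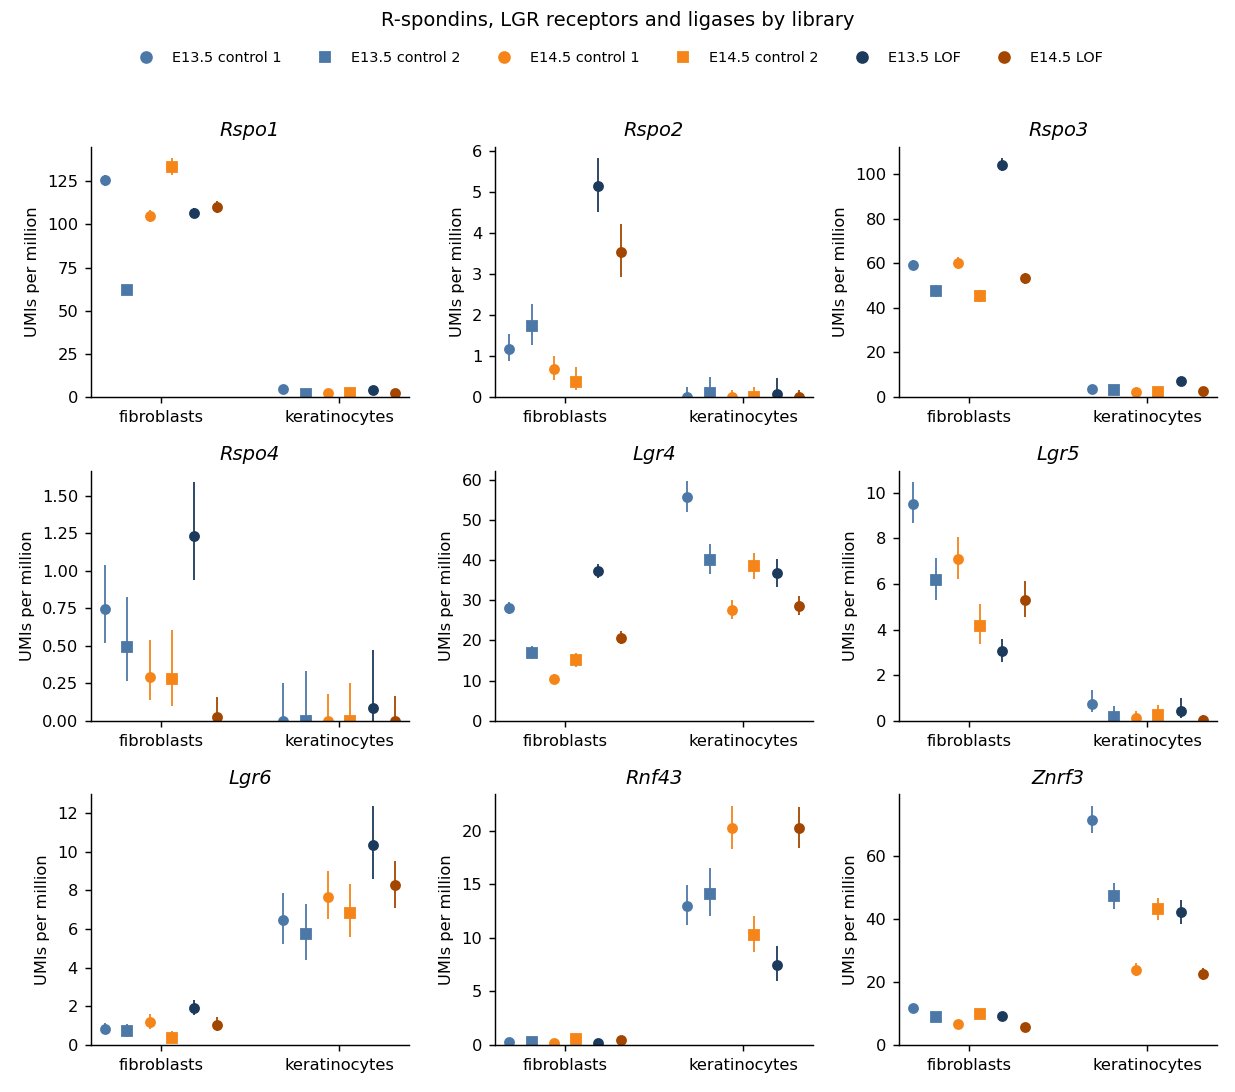
Level of each of the 9 genes in fibroblasts and keratinocytes of the 6 libraries (y axis, CPM of the class; bars on points, 95% exact Poisson intervals). The ligands and Lgr5 are higher in fibroblasts, Lgr4, Lgr6, Rnf43 and Znrf3 higher in control keratinocytes, and in E13.5 LOF the Lgr4 points of the 2 classes meet (37.4 and 36.7 CPM).

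The rest of the pathway, counted from lists chosen by function, was mixed. Of 11 Wnt receptors tested, 4 were higher and 5 lower in keratinocytes (median log2 -0.16, all genes -0.01): Fzd6 by 4.57 and Fzd10 by 3.86 on the log2 scale upward, and Fzd2 at -1.62. Of the 9 intracellular genes 4 were higher, among them Ctnnb1 (log2 1.14) and Csnk1a1 (0.47), and 1, Dvl3, was lower (-0.65). Among 10 Wnt target genes 8 were lower (median -4.13), including the Wnt-inactivating enzyme Notum (-5.47) and the feedback inhibitor Nkd2 (-4.72), and Lef1 alone was higher (2.39). Other R-spondin or LGR partners gave 2 higher and 3 lower of 5, with the syndecan Sdc4 at 2.45, the TNF-family receptor Tnfrsf19 at 1.69 and the glypican Gpc3 at -2.37.

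Less common cell types filled in the map. Rspo1 was highest in fibroblasts (median 115 CPM, range 61.9 to 133 over 4 controls), and the next class, pericyte-like cells, reached 8.87 to 15.1 CPM without overlap. From there to keratinocytes (1.61 to 4.47 CPM) each neighbouring pair of classes overlapped. Rspo3 was at 60.5 CPM in chondrocyte-like cells of the 1 control library with at least 20 of them, above the fibroblast range of 45.3 to 60.1 CPM by less than its counting error. Endothelial-like cells (3.22 to 28.4 CPM, 40 UMIs) and pericyte-like cells (1.77 to 18.8 CPM, 61 UMIs) held some Rspo3 and overlapped each other. Rspo4 was as high in muscle-like cells (median 0.44 CPM, range 0.00 to 1.55, 21 UMIs) as in fibroblasts (0.39 CPM, 0.28 to 0.75, 65 UMIs). Rspo2 in chondrocyte-like cells rested on 3 UMIs in 88 cells.

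Receptor and ligase levels ordered the classes differently. Lgr4 was found in chondrocyte-like (53.1 CPM, 1 library), mast-like (45.9 to 55.6 CPM, 2 libraries), keratinocyte (27.6 to 55.8 CPM) and Schwann-like cells (25.6 to 42.6 CPM), and these 4 overlapped in turn. It was lower in muscle-like cells (18.4 to 22.1 CPM) and lowest in macrophage-like (3.33 to 8.33 CPM) and melanoblast-like cells (1 UMI in 28 cells). Lgr5 stood at 19.1 CPM in control chondrocyte-like cells (23 UMIs in 88 cells), above the fibroblast range, and at 2.50 to 4.83 CPM in muscle-like cells. Lgr6 was highest in keratinocytes, with no overlap with the next class (mast-like, 2 UMIs). Rnf43 was otherwise seen in mast-like cells, at 5.29 and 10.3 CPM from 11 UMIs in 110 cells, which overlapped the keratinocyte range of 10.2 to 20.2 CPM. Znrf3 was highest in keratinocytes (24 to 71.7 CPM) and lay at 11.6 to 24 CPM in muscle-like cells, which fell just short of overlapping them.

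**Figure D2:**
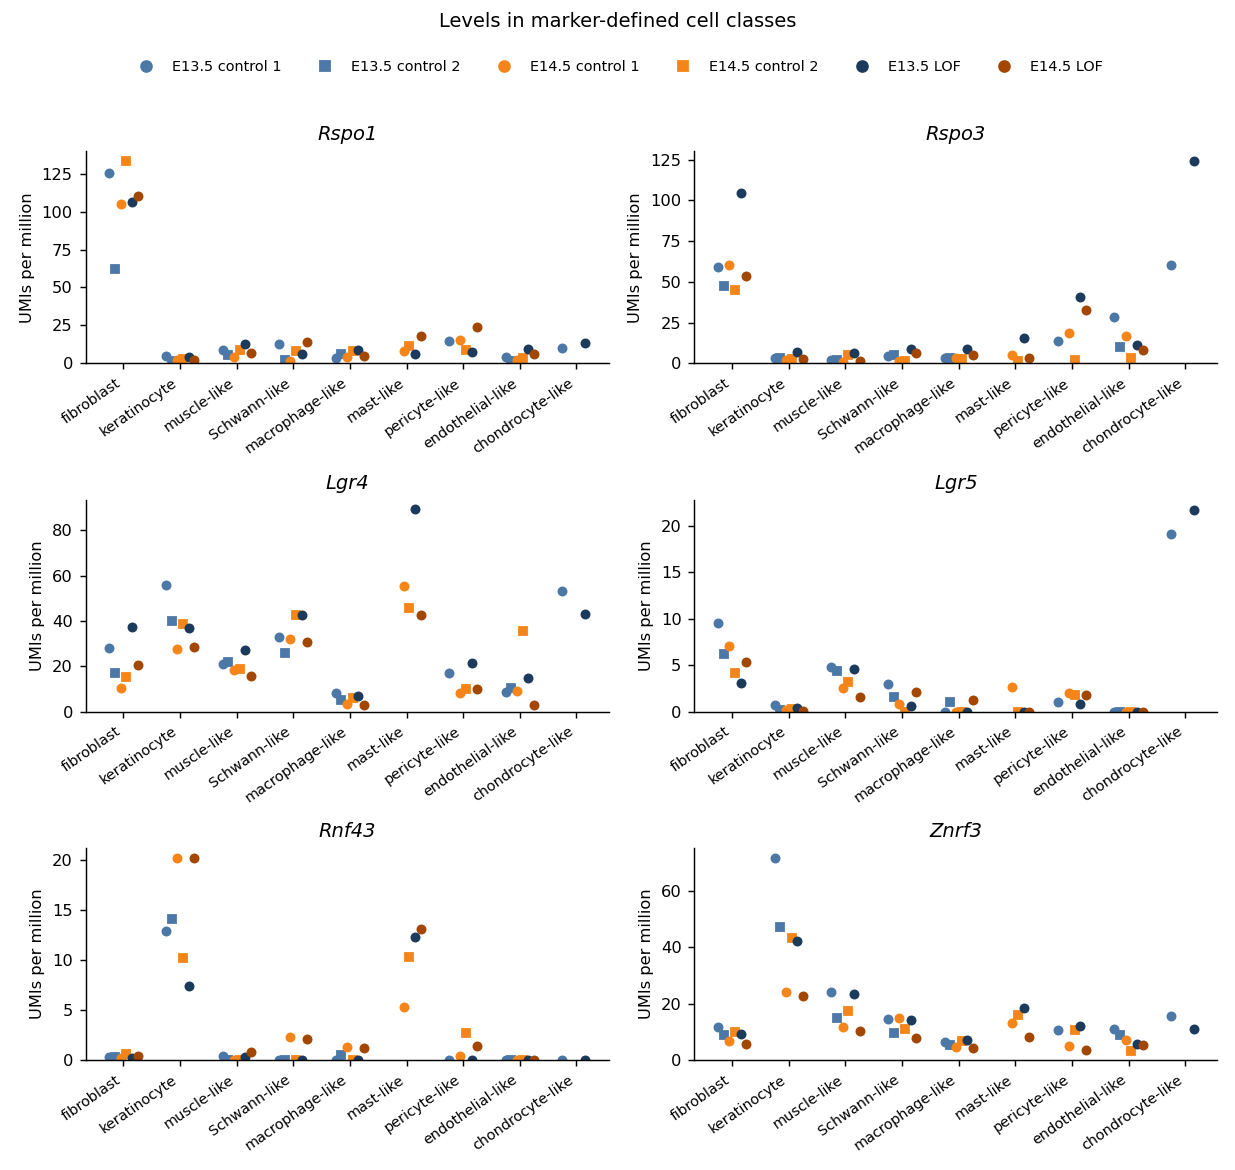
Levels of Rspo1, Rspo3, Lgr4, Lgr5, Rnf43 and Znrf3 by cell class (y axis, CPM; 1 point per library with at least 20 cells of the class). Rspo1 stands apart in fibroblasts, Lgr4 is spread over several classes, and Rnf43 is seen in keratinocytes and mast-like cells.

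Across the 31 class-by-library sums of the 4 controls, the genes most like each well-detected member were named as a description, by Pearson's r of log2(CPM + 1) over sums that share libraries. Rspo1 was close to Vcam1 (r = 0.907) and Twist2 (0.900), and Rspo3 to Gm13305 (0.848), Fat4 (0.831) and Gata6 (0.826). The receptors were closest to Socs2 (0.812), Lcmt1 (0.796) and Srsf7 (0.784) for Lgr4 and to Meis1 (0.880), Ptprd (0.818) and Usp29 (0.812) for Lgr5. Rnf43 was closest to Grhl2 (0.929), Pkp3 (0.897) and Espn (0.871), and Znrf3 to Sf3b6 (0.880), Nudt8 (0.837) and Srsf7 (0.818).

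Fibroblasts were not uniform in R-spondins or receptors. To ask whether the genes vary with Wnt activity inside the dermis, control fibroblasts of 8000 to 16000 UMIs with at least 3 UMIs of the Wnt targets Lef1, Axin2, Nkd1 and Sp5 were compared with those that had 0, within each library. The positive arm held 383 to 988 cells per control library and the zero arm 269 to 906. Rspo1 and Znrf3 were higher in target-positive cells and Lgr4 and Lgr5 were lower, 4 of 6 members tested, beside 34.1% of all genes (edgeR adjusted p under 0.05).

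Rspo1 in target-positive against target-zero fibroblasts was 176 against 77.9 and 68.5 against 41.2 CPM in the E13.5 controls, and 123 against 62.5 and 142 against 97.2 CPM in the E14.5 controls. It was higher in 4 of 4 libraries (log2 0.86 ± 0.10 SE, edgeR adjusted p = 3.19e-04). Lgr4 ran the other way, at 15.5 against 33.6, 11.3 against 15.4, 5.53 against 16.6 and 7.60 against 14.2 CPM (log2 -1.05 ± 0.17 SE, adjusted p = 1.01e-03). Both calls held when both replicate 2 controls were left out (Rspo1 log2 1.07, Lgr4 -1.32).

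Lgr5 was lower in target-positive cells in 4 of 4 libraries, at 6.25 against 11.3, 4.37 against 5.78, 2.23 against 14.9 and 2.79 against 4.11 CPM (log2 -1.26 ± 0.37 SE, edgeR adjusted p = 0.0362). Znrf3, which is itself a Wnt target in other tissues, was higher in 4 of 4, at 14.2 against 9.49, 9.87 against 7.71, 7.32 against 4.68 and 9.62 against 7.48 CPM (log2 0.48 ± 0.15 SE, edgeR adjusted p = 0.0331). These 2 calls were less firm: adjusted p for Znrf3 was 0.0543 to 0.158 without any 1 control library, and that for Lgr5 was 0.0759 without E13.5 control 1 and 0.0746 without E14.5 control 2. Without both replicate 2 controls the differences were larger, -1.68 for Lgr5 and 0.59 for Znrf3, and neither passed (adjusted p = 0.111 and 0.129).

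Rspo3 lay on opposite sides of the split at the 2 stages in the values, without passing the test of that difference. It stood at 44.0 against 78.8 and 42.6 against 45.7 CPM in target-positive against target-zero cells of the E13.5 controls, and at 89.0 against 41.7 and 60.5 against 12.7 CPM in those of the E14.5 controls. Over all 4 the difference was therefore small (log2 0.36, 95% interval -1.26 to 1.98, edgeR adjusted p = 0.685). The stage difference of the split, a test added after the data were seen, was 1.98 on the log2 scale (95% interval 0.41 to 3.55) with edgeR adjusted p = 0.201 in the 4 libraries. That difference was 1.56 without E13.5 control 1, 2.30 without E13.5 control 2, 2.75 without E14.5 control 1 and 1.72 without E14.5 control 2. Each of these fits leaves 1 stage with a single library, so only the size of the difference is given. In fits with all 4 libraries, the difference passed with DESeq2 (2.07) and without the filter on low counts (2.02). It did not pass with upper-quartile factors or with stricter class thresholds (edgeR adjusted p up to 0.222).

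Lgr5 was the 1 member of 6 whose split differed between stages with all 4 libraries, beside 6.82% of all genes (log2 -1.46 ± 0.42 SE, edgeR adjusted p = 0.0196). That rested on E14.5 control 1: without it the difference was 0.11 (adjusted p = 0.980). The call was also lost with DESeq2 (-1.18) and with upper-quartile factors (-1.50, adjusted p = 0.0786). Rspo1 passed in turn without E14.5 control 1 (-0.52, adjusted p = 0.0148), and Rspo2 without E14.5 control 2 (-5.77, adjusted p = 0.0445). Rspo2 in the split itself rested on 11, 4, 0 and 0 UMIs against 16, 15, 10 and 1 (log2 -1.96 ± 0.69 SE, adjusted p = 0.0556), and passed without E13.5 control 1 (-3.24, adjusted p = 0.0175).

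**Figure D3:**
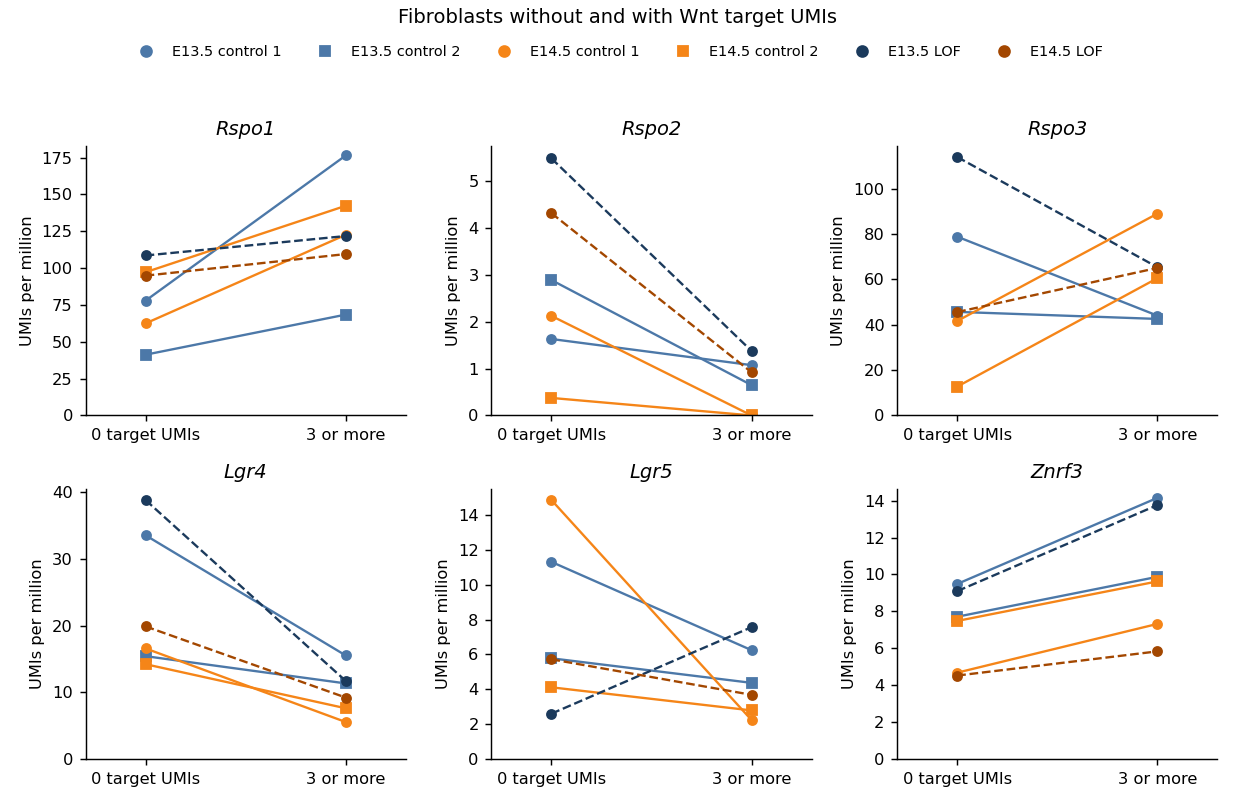
Levels of 6 genes (y axis, CPM) in fibroblasts with 0 and with at least 3 Wnt-target UMIs; each line joins the arms of 1 library, dashed for LOF. Rspo1 lines rise and Lgr4 lines fall in the 4 controls. Rspo3 lines of the controls fall at E13.5, only slightly in E13.5 control 2, and rise at E14.5.

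Among the Wnt receptors, 5 of 10 tested were lower and 2 higher in target-positive fibroblasts (median log2 -0.25, all genes 0.00), with Fzd4 at -3.23, Fzd7 at -0.83 and Fzd10 at 1.60. Of 9 intracellular genes 2 were higher, Ctnnb1 by 0.26 and Csnk1a1 by 0.21 on the log2 scale. All 10 Wnt targets were called higher (median 4.47), but 4 of them defined the split and support nothing; Notum, outside it, was at 5.05. Of 4 other partners Tnfrsf19 (2.49) and Sdc4 (0.58) were higher and Gpc3 lower (-1.31). Between stages the split differed for 0 of 10 receptors, 1 of 9 intracellular genes, 2 of 10 targets and 2 of 4 partners.

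Fibroblasts marked by genes of the lower dermis gave the converse picture. Cells with at least 3 UMIs of Dpt, Mfap5, Clec3b and Pi16 were compared with those at 0 in the same depth range (130 to 671 against 431 to 1920 cells per control library). Rspo1 was lower and Rspo2 and Lgr4 were higher in marked cells, 3 of 6 members tested, beside 29.8% of all genes.

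Rspo1 in marked against unmarked fibroblasts was 41.7 against 154, 29.1 against 68.4, 63.2 against 131 and 93.9 against 149 CPM, lower in 4 of 4 control libraries (log2 -1.16 ± 0.20 SE, edgeR adjusted p = 0.0129). Lgr4 was 27.6 against 23.5, 16.0 against 11.6, 12.7 against 6.35 and 13.6 against 8.69 CPM, higher in 4 of 4 (log2 0.60 ± 0.16 SE, adjusted p = 0.0189). Rspo2 was 1.93 against 0.70, 2.91 against 1.12, 1.67 against 0.00 and 1.07 against 0.00 CPM (log2 2.23 ± 0.70 SE, adjusted p = 0.0390). Without both replicate 2 controls the differences were no smaller, -1.41 for Rspo1, 0.63 for Lgr4 and 2.52 for Rspo2, but none of the 3 passed (adjusted p = 0.0883, 0.226 and 0.251), with 151 in place of 3717 genes called. Single libraries also ended calls: Rspo1 without E13.5 control 2 (0.0535) or E14.5 control 1 (0.0705), Lgr4 without either E14.5 control (0.102 and 0.0719), and Rspo2 without E13.5 control 1 (0.0548), E13.5 control 2 (0.0684) or E14.5 control 2 (0.0914).

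Lgr5 was at 10.2 against 7.27 and 6.55 against 4.98 CPM at E13.5 and at 14.4 against 2.21 and 10.2 against 0.46 CPM at E14.5, higher in marked cells of 4 of 4 libraries but not past the threshold (log2 1.64 ± 0.62 SE, edgeR adjusted p = 0.119; DESeq2 0.0149). Rspo3 was at 64.0 against 55.4, 21.1 against 42.1, 34.8 against 88.3 and 15.0 against 55.6 CPM, so E13.5 control 1 alone was higher in marked cells (log2 -0.91 ± 0.43 SE, adjusted p = 0.205; -1.43 and past the threshold without that library, adjusted p = 2.46e-04). Znrf3 did not pass (log2 -0.24, 95% interval -0.65 to 0.17, adjusted p = 0.356). Of the 10 Wnt receptors tested 5 were higher and 1 lower (Fzd4 2.61, Fzd7 0.88, Fzd10 -1.43; median 0.35), of 9 intracellular genes 2 were lower (median -0.06), of 10 targets 9 were lower (Wif1 -3.75, Notum -4.45; median -3.48), and of 4 partners 1 was higher and 2 lower, beside a median of -0.01 over all genes.

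Rspo1 and Rspo3 were not mutually exclusive. In control fibroblasts of 8000 to 16000 UMIs with an Rspo1 UMI, 26.6%, 23.4%, 34.8% and 20.2% also held Rspo3, against 31.3%, 24.9%, 29.9% and 20.4% of those without Rspo1. The LOF libraries gave 28.5% against 44.9% at E13.5 and 23.2% against 24.8% at E14.5. The largest gap of the 6 libraries was that of E13.5 LOF.

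Dermal condensates, the fibroblast clusters that become the dermal papilla, were sought as fibroblasts with at least 3 of 9 markers (Sox2, Sox18, Foxd1, Cxcr4, Gal, Inhba, Ptch1, Gli1 and Bmp3). The E14.5 controls had 117 and 25 such cells in the depth range and the E13.5 controls 14 and 4, too few to use. Condensate-like cells held more Rspo3 and less Rspo1 and Lgr5 than fibroblasts with 0 markers, 3 of 5 members tested, beside 15.4% of all genes. The fit had 1 residual degree of freedom, so its p-values rest mostly on a spread that edgeR shares across genes, and little on these libraries.

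Rspo3 was 115 against 41.7 and 61.4 against 26.6 CPM in condensate-like against marker-free cells of E14.5 controls 1 and 2 (log2 1.35 ± 0.21 SE, edgeR adjusted p = 1.04e-08). Rspo1 was 39.2 against 105 and 72.2 against 137 CPM (log2 -1.31 ± 0.21 SE, adjusted p = 7.28e-09). The E14.5 LOF library, with 31 condensate-like cells and no part in the test, had the same order for both genes, Rspo3 at 63.0 against 41.1 and Rspo1 at 41.0 against 108 CPM. Lgr5 was 1.60 against 9.80 and 0.00 against 5.32 CPM, from 2 and 0 UMIs (log2 -2.79 ± 0.83 SE, adjusted p = 7.60e-03), and DESeq2 called Rspo1 and Rspo3 but not Lgr5.

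Lgr4 and Znrf3 did not pass in condensate-like cells. Lgr4 was 8.0 against 10.0 and 18.1 against 14.3 CPM (log2 -0.17, 95% interval -0.99 to 0.65, edgeR adjusted p = 0.872). Znrf3 was 9.60 against 6.17 and 25.3 against 7.14 CPM, the first of each pair from 12 and 7 UMIs (log2 0.98 ± 0.46 SE, adjusted p = 0.148). Of 10 Wnt targets 8 were higher and 0 lower (median log2 1.73, all genes -0.01), among them Lef1 (2.80), Dkk1 (2.78) and Nkd1 (1.63). Of 8 receptors 2 were higher and 2 lower (Fzd10 1.45, Fzd4 -4.30), of 9 intracellular genes 2 were higher (Ctnnb1 0.69), and of 4 partners 1 was higher and 2 lower. Without replicate 2 a single library remains, which gives the values above and no test.

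Placode-like keratinocytes carried more Lgr4, and more Rnf43 by a less firm call. Hair placodes are the epidermal thickenings over the condensates, and keratinocytes with at least 3 of 8 markers (Shh, Dkk4, Edar, Lhx2, Wnt10b, Fgf20, Bmp2 and Sostdc1) were compared with those at 0, 68 to 96 against 87 to 124 cells per control library. Of 4 members tested 2 passed, beside 7.02% of all genes, and all 4 were higher in placode-like cells of 4 of 4 libraries.

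Lgr4 was 90.1 against 40.6 and 51.8 against 31.9 CPM at E13.5 and 51.5 against 12.1 and 49.0 against 15.3 CPM at E14.5 (log2 1.36 ± 0.22 SE, edgeR adjusted p = 1.37e-03), and passed without both replicate 2 controls (1.55, adjusted p = 0.0139). Lgr6 was 11.9 against 6.46, 9.51 against 6.85, 20.4 against 0.00 and 14.5 against 0.95 CPM (log2 2.04 ± 0.71 SE, adjusted p = 0.150; 2.79 and adjusted p = 0.0374 without E13.5 control 2). Rnf43 was 16.3 against 12.9, 25.4 against 9.13, 31.1 against 15.0 and 9.08 against 4.77 CPM (log2 1.0 ± 0.28 SE, adjusted p = 0.0456). It did not pass with DESeq2 (adjusted p = 0.472) or with stricter class thresholds (edgeR adjusted p = 0.162). Without both replicate 2 controls it was at 0.76 and did not pass either (edgeR adjusted p = 0.492). The call on Rnf43 was lost without any 1 library, with adjusted p of 0.0607 without E13.5 control 1, 0.131 without E13.5 control 2, 0.253 without E14.5 control 1 and 0.213 without E14.5 control 2.

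Znrf3 was 102 against 78.4, 57.1 against 42.6, 41.8 against 23.5 and 52.7 against 41.0 CPM (log2 0.51 ± 0.16 SE, edgeR adjusted p = 0.0723). Among the lists, 0 of 8 Wnt receptors (median log2 -0.16) and 0 of 7 intracellular genes (0.33) were called in placode-like cells, against 2 of 6 targets, Wif1 (5.07) and Sp5 (4.38), and 2 of 4 partners, Sdc4 (1.08) and Gpc4 (0.83). The median over all genes was 0.02. In the E14.5 LOF library, outside the test, Lgr4 was 52.8 against 14.9 and Lgr6 28.4 against 3.99 CPM.

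**Figure D4:**
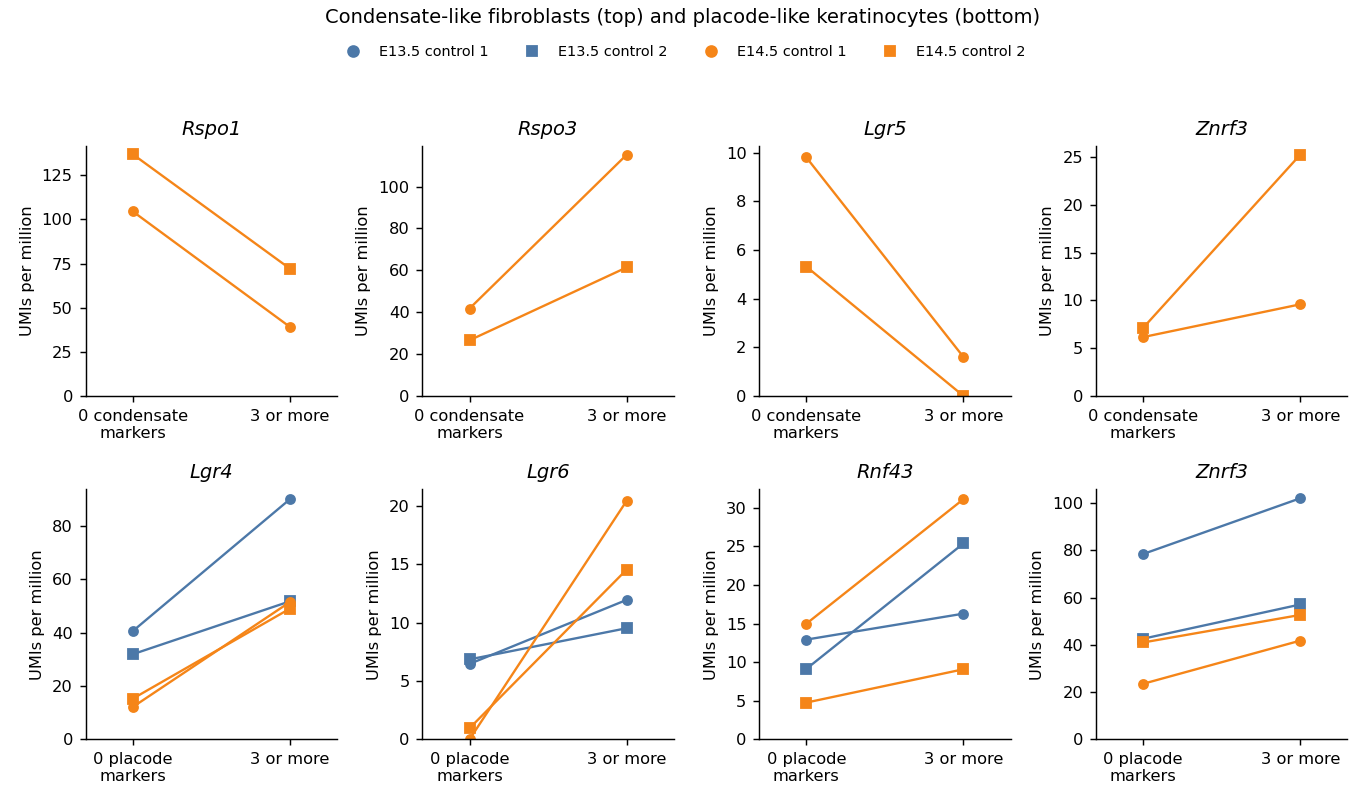
Top, Rspo1, Rspo3, Lgr5 and Znrf3 in fibroblasts with 0 and with at least 3 condensate markers in the 2 E14.5 controls; bottom, Lgr4, Lgr6, Rnf43 and Znrf3 in keratinocytes with 0 and with at least 3 placode markers in the 4 controls (y axes, CPM; lines join the arms of a library). Rspo3 rises and Rspo1 falls in condensate-like cells, and each of the 4 lower genes is higher in placode-like cells of every control.

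Between E13.5 and E14.5, controls gave no call for these genes. In fibroblasts 0 of 8 members tested passed (1 at unadjusted p under 0.05, 0 with DESeq2), beside 0.237% of all genes. Rspo3 averaged 53.4 ± 8.33 CPM in E13.5 controls against 52.7 ± 10.5 CPM a day later (SD, n = 2 each), with a log2 difference of 0.00 and a 95% interval of -0.56 to 0.56. Rspo1 averaged 93.7 ± 45 and 119 ± 20.2 CPM (log2 0.40, interval -0.55 to 1.34). The E13.5 controls, at 126 and 61.9 CPM, spanned most of that range.

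Lgr4 in fibroblasts averaged 22.5 ± 7.79 CPM in E13.5 controls against 12.8 ± 3.25 CPM a day later (SD, n = 2 each), with both E13.5 libraries above both E14.5 libraries (log2 -0.77 ± 0.37 SE, edgeR adjusted p = 0.332). Rspo2, at 1.17 and 1.73 against 0.67 and 0.37 CPM, was the member with unadjusted p under 0.05 (log2 -1.44 ± 0.49 SE, edgeR adjusted p = 0.236). In keratinocytes 0 of 6 members passed (0 at unadjusted p under 0.05, 0 with DESeq2), beside 0.321% of all genes. Znrf3 there averaged 59.5 ± 17.3 and 33.6 ± 13.5 CPM, with both E13.5 libraries above both E14.5 libraries (log2 -0.74 ± 0.39 SE, edgeR adjusted p = 0.449), and passed without E14.5 control 2 (-1.34, adjusted p = 0.0474). No gene of the 4 pathway lists was called in either class, with median log2 of 0.62 for the targets in fibroblasts and 0.06 in keratinocytes (all genes 0.03 and 0.04).

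Whether the stage change differed between the compartments was tested as an interaction. Znrf3 was the 1 member of 9 called, beside 11.4% of all genes (E14.5 over E13.5 in keratinocytes relative to fibroblasts, log2 -0.52 ± 0.15 SE, edgeR adjusted p = 0.0446). The call was lost without E13.5 control 1 (-0.40, adjusted p = 0.257), E14.5 control 1 (-0.41, 0.254) or E14.5 control 2 (-0.67, 0.0522). Rspo1 came next (-0.64 ± 0.22 SE, adjusted p = 0.0894) and passed without E13.5 control 2 (-0.79, 0.0282). Of 10 targets 1 had a higher and 3 a lower stage difference in keratinocytes (Wif1 2.35, Lef1 -0.97, Nkd1 -1.54), partners gave 1 higher and 2 lower of 5 (Gpc3 0.58, Gpc4 -0.79, Tnfrsf19 -0.57), and 0 receptors or intracellular genes were called.

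The LOF libraries asked what loss of β-catenin in Pdgfra-lineage cells did to the group. Ctnnb1 itself, at 178 to 195 CPM in control and 247 and 199 CPM in LOF fibroblasts, checks nothing here, since a 3′ count can lie outside the deleted exons. Sp5, a direct Wnt target, was at 45.6 to 52.6 CPM in control fibroblasts and at 4.20 and 18.9 CPM in LOF fibroblasts of E13.5 and E14.5. Cells with at least 3 UMIs of the 4 targets were 32.6% to 51.3% of control fibroblasts in the depth range and 4.47% and 16.6% of LOF fibroblasts. Lower-dermis-marked cells were 11% and 8.23% of E13.5 control and 23.5% of E13.5 LOF fibroblasts, and 34.8% and 35.1% of E14.5 control and 61.6% of E14.5 LOF fibroblasts. A gene's sum over all fibroblasts can thus move with the mix of these cells, and the size of that part was not tested.

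Of the 9 members, 0 were called in LOF fibroblasts by edgeR (1 at unadjusted p under 0.05, 1 with DESeq2), beside 0.0134% of all genes. Against the replicate 1 controls alone 0 of the 9 were called. Rspo2 was the gene in both counts. It gave 246 and 123 UMIs in LOF fibroblasts, 5.14 and 3.54 CPM, against 1.17, 1.73, 0.67 and 0.37 CPM in controls, so both LOF libraries stood above all 4 controls. Its log2 difference was 2.22 (95% interval 1.37 to 3.07, unadjusted p = 6.45e-04, edgeR adjusted p = 0.281), 2.20 with DESeq2 (adjusted p = 1.49e-04), and 2.25 against the replicate 1 controls alone (edgeR adjusted p = 0.0554). In cells thinned to 3000 UMIs, 1.71% and 0.943% of LOF fibroblasts held an Rspo2 UMI against 0.110% to 0.792% of control fibroblasts.

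Rspo1 and Rspo3 did not pass. Rspo1 was at 107 and 110 CPM in LOF fibroblasts, inside the control range of 61.9 to 133 CPM (log2 -0.02, 95% interval -0.76 to 0.73, edgeR adjusted p = 0.990). Rspo3 was at 104 CPM in E13.5 LOF, above all 4 controls, and at 53.4 CPM in E14.5 LOF, inside their range (log2 0.47, interval -0.13 to 1.08, adjusted p = 0.730). Rspo4 rested on 59 and 1 UMIs (log2 -0.05, interval -1.78 to 1.68). The interval for Rspo1 excludes a doubling over the 4 controls or a fall of the same size, and that for Rspo3 does not exclude a doubling.

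Lgr4 in LOF fibroblasts was at 37.4 CPM at E13.5 against 28.0 and 17.0 CPM in controls of that stage, and at 20.7 CPM at E14.5 against 10.5 and 15.0 CPM, above its stage's controls both times (log2 0.66, 95% interval -0.01 to 1.32, edgeR adjusted p = 0.610). Lgr5 was at 3.05 CPM at E13.5 against 9.52 and 6.16 CPM, and at 5.29 CPM at E14.5, between the controls at 7.10 and 4.18 CPM (log2 -0.73, interval -1.65 to 0.18, adjusted p = 0.717). On the log2 scale the ligases were at -0.42 for Znrf3 (interval -1.11 to 0.27) and -0.20 for Rnf43 (interval -1.57 to 1.17). Lgr6 was at 0.86 (interval -0.25 to 1.96). No listed pathway gene was called. The 10 Wnt targets had a median log2 of -1.60, all genes 0.02, with Notum at -2.20, Nkd1 at -1.62 and Nkd2 at -1.36 (each with edgeR adjusted p = 0.281); the receptors, intracellular genes and partners had medians of 0.23, 0.22 and -0.01.

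Fibroblasts without a target UMI were compared between genotypes as an added test. They were 70.2% and 52.8% of LOF fibroblasts in the depth range and 22.1% to 33.2% of control fibroblasts, so the arm is itself set by the genotype: it takes in most LOF cells and a low-target subset of control cells, and the values describe these arms only. Of 7 members 0 were called (2 at unadjusted p under 0.05, 0 with DESeq2), beside 0.0% of all genes. Rspo2 was 5.49 and 4.32 CPM in LOF against 1.63, 2.89, 2.13 and 0.37 CPM in controls (log2 1.40, 95% interval 0.38 to 2.43), and Lgr5 was 2.60 and 5.72 CPM against 11.3, 5.78, 14.9 and 4.11 CPM (log2 -1.29, interval -2.42 to -0.17), both with edgeR adjusted p = 0.970. Rspo1 was at 0.51 (interval -0.26 to 1.28), Rspo3 at 0.77 (-0.08 to 1.61) and Lgr4 at 0.47 (-0.21 to 1.16) on the log2 scale. Against the replicate 1 controls alone, Lgr5 (log2 -1.75), Rspo2 (1.48) and Rspo1 (0.55) passed. That fit has 1 library for each genotype and stage.

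**Figure D5:**
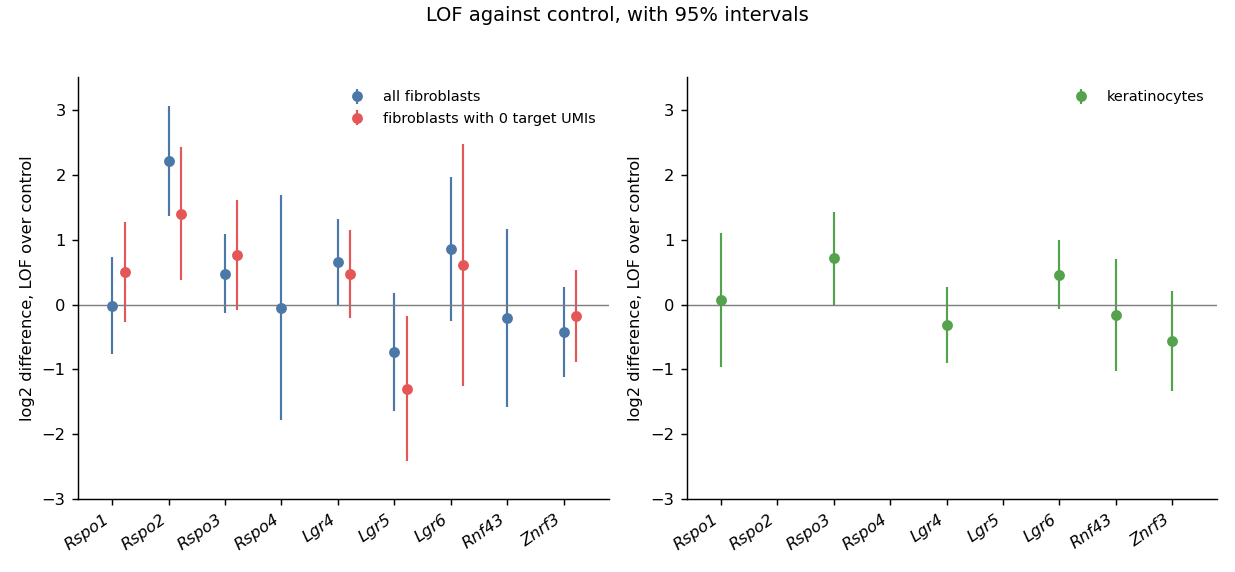
Log2 difference of LOF over control for each tested gene with its 95% interval (y axis), in all fibroblasts and in fibroblasts without a Wnt-target UMI on the left and in keratinocytes on the right. The interval of Rspo2 in all fibroblasts lies above 0, the target-zero arm holds different shares of the 2 genotypes, and the intervals of all 6 genes tested in keratinocytes include 0.

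Within the LOF libraries, fibroblasts with at least 3 eGFP UMIs (1041 and 950 cells) were compared with those at 0 (1380 and 695 cells), also as an added test. Of 8 members 0 were called (3 at unadjusted p under 0.05, 0 with DESeq2), beside 0.876% of all genes. The fit had 1 residual degree of freedom. Its p-values and intervals thus rest mostly on a spread that edgeR shares across genes, and little on these libraries. Rspo1 was at 0.17 (95% interval 0.05 to 0.28, edgeR adjusted p = 0.241), Rspo3 at 0.02 (-0.11 to 0.16), Lgr4 at 0.15 (-0.04 to 0.35), Lgr5 at -0.66 (-1.18 to -0.14, adjusted p = 0.461) and Lgr6 at 0.97 (0.19 to 1.76, adjusted p = 0.487). The 10 Wnt targets had a median of 0.16 and 0 calls; Lef1, with the smallest p of them, was at 0.46 (edgeR adjusted p = 0.185).

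Keratinocytes, which the Pdgfra driver does not target, gave 0 of 6 members called (0 at unadjusted p under 0.05, 0 with DESeq2), beside 0.0% of all genes, and 0 against the replicate 1 controls alone. Lgr4 was at 36.7 CPM in LOF at E13.5 against 55.8 and 40.0 CPM, and at 28.6 CPM at E14.5 against 27.6 and 38.5 CPM (log2 -0.32, 95% interval -0.91 to 0.27). Znrf3 was at 42.2 CPM against 71.7 and 47.3 CPM at E13.5, and at 22.5 CPM against 24 and 43.1 CPM at E14.5, below both controls each time (log2 -0.56, interval -1.33 to 0.21). Rnf43 was at 7.46 CPM against 12.9 and 14.1 CPM, and at 20.2 CPM against 20.2 and 10.2 CPM (log2 -0.16, interval -1.02 to 0.70). Lgr6 was at 0.46 (interval -0.08 to 1.0), Rspo1 at 0.07 and Rspo3 at 0.71, each with edgeR adjusted p of 0.987 or above. Rspo3 in keratinocytes of E13.5 LOF (7.12 CPM against 3.39 and 3.04 CPM) stood beside the library's high fibroblast Rspo3, and stray counts were not told apart from transcription there. Placode-like cells were 5.11% and 7.42% of LOF keratinocytes in the depth range and 10.7% to 13.4% of control keratinocytes.

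Outside these classes the LOF libraries held few cells. Rspo3 was at 124 CPM in chondrocyte-like cells of E13.5 LOF against 60.5 CPM in the 1 control library that had them, and at 40.8 and 32.6 CPM in pericyte-like cells of E13.5 and E14.5 LOF against 1.77 to 18.8 CPM in controls. Lgr5 in chondrocyte-like cells was at 21.7 CPM in the E13.5 LOF library, beside 19.1 CPM in control. In mast-like cells of E13.5 and E14.5 LOF (23 and 87 cells), Lgr4 was at 89.2 and 42.7 CPM and Rnf43 at 12.3 and 13.1 CPM. The E13.5 controls, with 6 and 17 mast-like cells, had too few for a value of that stage. These differences were not tested.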

How the data were processed

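Single-cell suspensions were made into libraries with the 10x Genomics Chromium 3′ v2 kit and sequenced on an Illumina HiSeq instrument, per the labels' protocols. The deposited matrices hold raw UMI counts per gene and cell, and the submitters' processing notes name Cell Ranger, Seurat, GRCm38 and mm10 without versions or settings; reporter sequences have their own rows.

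A barcode was kept when it had 1000 UMIs and 500 genes or more, and when mitochondrial UMIs made up no more than 10%. Cells were classed by marker UMIs: fibroblasts and keratinocytes as given above, other classes at 5 UMIs over 3 markers (10 for muscle and chondrocyte, 500 for red cells). Cells meeting 2 classes (1099) and those meeting none (3703) were left out; no doublet caller was used. The chondrocyte marker Cnmd has no row. Counts were summed per library and class or arm, and tested with edgeR 4.0.16 (R 4.3.3; filterByExpr, TMM, robust quasi-likelihood, Benjamini-Hochberg over all genes). Class and split tests had the library as a block; genotype tests had the stage. DESeq2 1.42.0 was an alternative. An arm needed at least 20 cells in a library. A call is an adjusted p under 0.05. Intervals are at 95%, exact Poisson for sums and exact binomial for shares, and cover counting error only.

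The named genes are the 9 members, up to 3 genes with the smallest p of each list (12 Wnt receptors, 9 intracellular genes, 10 Wnt targets, 5 partners), and the 3 genes most like each member at 10 CPM or more in some class. A gene that this rule names is not reported here. Members and lists were chosen with earlier results of these data known. Of 13 comparisons, 3 were added after the data were seen (the Wnt-target split by stage, the genotype test in target-zero fibroblasts and the eGFP split). Tests were run on simulated counts before use.

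Same-numbered control libraries of the 2 stages deviated together (correlation 0.385 in fibroblasts, 0.396 in keratinocytes), but with 2 pairs and no label saying so they were not treated as paired.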

Additional observations from a re-analysis of the deposited data

Results flagged for a closer look

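Znrf3 was picked out because the test of its stage difference between compartments passed: E14.5 over E13.5 in keratinocytes relative to fibroblasts was -0.52 on the log2 scale (edgeR adjusted p = 0.0446), beside 11.4% of all genes called. The call was lost with DESeq2 (adjusted p = 0.214), with upper-quartile factors (0.0667) and without 3 of the 4 libraries in turn (0.257 when E13.5 control replicate 1 was left out, 0.254 or 0.0522 when it was the E14.5 library of replicate 1 or 2). In the added test of whether the Wnt-target split differed between stages, Lgr5 was at -1.46 (edgeR adjusted p = 0.0196) and passed, but not with DESeq2 (-1.18) or upper-quartile factors (-1.50, adjusted p = 0.0786), and it was at 0.11 without E14.5 control replicate 1. Rspo3 was at 1.98 and did not pass (edgeR adjusted p = 0.201). Both E13.5 controls lay on 1 side of the split, replicate 2 only narrowly, and both E14.5 controls on the other. The eGFP transcript, which no comparison between genotypes used, stood at 119 CPM in fibroblasts of E13.5 control replicate 2 and at 92.7 CPM in those of E14.5 control replicate 2, against 3.01 and 5.29 CPM in the replicate 1 controls. The latter were not free of reporter counts, with tdTomato at 1038 and 39.7 CPM in their keratinocytes.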

How the results depend on the processing

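Of 871 recomputed member values, 766 kept their direction and side of the threshold; 35 lost a call, 23 gained 1, 46 uncalled values changed sign, and 1 called value reversed (Lgr5 in the Wnt-target split by stage, from -1.46 to 0.11 without E14.5 control replicate 1; the lowest value with 1 library out was -1.93). Leaving 1 library out can leave a stage with 1 library, which is then assumed to vary like the others, and in the condensate comparison it left no test.

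Genes called for stage in fibroblasts (34) became 0 with stricter class thresholds, 957 with DESeq2, 655 without the low-count filter and 372 with upper-quartile factors, where the median of all genes moved to -0.10 and 160 calls were higher and 212 lower in place of 25 and 9 (552 and 405 with DESeq2). Leaving out 1 library gave 362 to 3491. In keratinocytes the 40 became 24, 445, 822 and 266 under the same settings, 63 without the 5% of cells with most UMIs, and 49 to 2122 with 1 library out, with 0 to 1 members. With the replicate block, counts rose to 1054 in fibroblasts and 1269 in keratinocytes, and 0 members were called in either, as without it.

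For stage by class, 1657 genes became 947 with DESeq2 and 891 to 1548 with 1 library out; the 1 member became 2 with stricter thresholds or with cells of 2 classes given to the stronger, 0 with DESeq2 or upper-quartile factors, and 0 to 2 with 1 library out. For genotype in fibroblasts, 2 genes became 0 with stricter thresholds or cells of 2 classes reassigned, 284 with DESeq2 (150 higher, 134 lower; 1 member), 6 without the filter, 33 against replicate 1 controls and 0 to 1 with 1 library out. In keratinocytes 0 became 5 with DESeq2 and 1 against replicate 1 controls. In target-zero fibroblasts 0 became 9, 4 without the filter, 203 against replicate 1 controls (3 members) and 0 to 1 with 1 library out. The eGFP split went from 114 to 5 genes with DESeq2 (0 higher, 5 lower, in place of 41 and 73).

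Without both replicate 2 controls, genes called fell from 4221 to 1821 in the Wnt-target split (members 4 to 2), from 3717 to 151 in the lower-dermis split (3 to 0; 5 with DESeq2) and from 614 to 211 in the placode split (2 to 1). With 1 library out these ranges were 3198 to 3670 genes and 2 to 3 members, 2257 to 3147 and 0 to 3, and 111 to 972 and 1 to 2. Placode genes were also 369 with stricter thresholds (1 member), 260 with DESeq2 (1 member) and 1152 without the filter; condensate genes fell from 1724 to 400 with DESeq2. The Wnt-target split by stage (843) gave 173 with DESeq2 and 415 to 1048 with 1 library out; its 1 member became 2 without the filter, 0 with upper-quartile factors and 2 to 3 with 1 library out. Keratinocytes against fibroblasts gave 8552 to 8863 genes and 8 to 9 members with 1 library out. The causes were not tested. Rspo2, Rspo4 and fibroblast Rnf43 are limited by depth, at 135, 65 and 40 UMIs over the control fibroblasts.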
